A study of Mus musculus with 18 samples.

Results

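The 10 genes described here encode amino acid transporters of the kidney tubule, or proteins that carry such transporters to the cell surface. They were chosen by name from the 78239 genes in each file: *Slc3a1*, *Slc7a9*, *Slc7a13*, *Slc7a7*, *Slc7a8*, *Slc7a12*, *Slc6a19*, *Slc6a18*, *Cltrn*, and *Slc1a1*. Kidney RNA came from wild-type CD-1 mice, an outbred stock, aged 6 wk, with 1 library per mouse. LP offspring were born to dams on a diet with 8% protein through gestation and lactation, NP offspring to dams on an isocaloric diet with 18% protein, and all offspring ate the 18% diet once weaned. The males numbered 5 LP and 5 NP, and the females 5 LP and 3 NP. Every mouse, whatever its group, had received cationic ferritin, and males were collected sooner after their last injection than females, so sex and collection time cannot be told apart. The methods describe RNA from a piece of the left kidney, cleared of blood with saline, whereas the series record describes whole kidneys. In RNA from bulk tissue, fewer cells of a type and less RNA per cell cannot be told apart.

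The proximal tubule takes back nearly all filtered amino acids. Transporters in its brush border bring them into the cell, and others in the basolateral membrane pass them on to the blood. Some of these transporters need a second subunit. *Slc3a1* encodes rBAT, the heavy chain that pairs with the light chain encoded by *Slc7a9* to take up cystine and basic amino acids, and variants of either gene cause cystinuria. *Slc7a13* encodes AGT1, another light chain of rBAT, which carries aspartate, glutamate, and cystine in the straight end of the proximal tubule, the S3 segment. *Slc6a19*, mutated in Hartnup disorder, and *Slc6a18* encode brush border carriers of neutral amino acids, and both need collectrin, the product of *Cltrn*, in the kidney. *Slc7a7*, mutated in lysinuric protein intolerance, and *Slc7a8* encode basolateral exchangers that pair with the heavy chain from *Slc3a2*. *Slc7a12* encodes Asc-2, a carrier of small neutral amino acids, and *Slc1a1* encodes EAAT3, which takes up glutamate and aspartate at the brush border.

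Each library held 14050486 to 23562411 reads counted on genes, while a further 28.6% to 36.1% of reads in each library were not assigned to a single gene. Summed counts of *Uty*, *Ddx3y*, *Kdm5d*, and *Eif2s3y*, 4 genes of the Y chromosome, were between 120.1 and 176 CPM (counts scaled to the library total) in males and between 0 and 4.01 CPM in females. All 6 markers fixed for the cortical proximal tubule and all 6 fixed for S3 had at least 10 counts in every library. LP female 1, LP female 2, and NP female 3 stood apart by low levels of genes that respond to interferon or glucocorticoids, and results that rest on females are given without them where the call or direction changed. NP female 3 also had the most mitochondrial counts, 16.5%, with LP female 1 next at 11.3%. Its share of reads not assigned to a single gene was the highest, 36.1%, and it had the fewest genes with a count, 20541. The longest exon stretches shared with a gene on the opposite strand were those of *Slc3a1* with *Prepl* (1446 of 5401 exon bases) and *Slc7a7* with *Oxa1l* (633 of 6072). The non-directional libraries do not tell the strands apart there, and reads on such shared bases are counted for neither gene.

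Levels were compared between genes as normalized counts per kilobase of exons, where normalized counts are counts divided by the size factor of DESeq2. All annotated exons of a gene count toward its length. That is 8560 bases for *Slc1a1* and 9241 for *Slc7a8*, against 4059 and 5011 in their longest transcripts, but 5401 either way for *Slc3a1*. Of these, 1446 are shared with *Prepl*, so the level of *Slc3a1* per kilobase is understated. The order of neighboring genes depends on this choice and was not repeated with transcript lengths. *Cltrn* was highest in both sexes, at 11940 ± 1383 per kilobase (SD, n = 10) in males and 10752 ± 1907 (SD, n = 8) in females. In males, *Slc7a13* was next, at 8247 ± 1635 per kilobase, and its range overlapped that of *Cltrn* in NP males but not in LP males. *Slc6a18* followed at 2172 ± 578, entirely below *Slc7a13*. *Slc3a1*, *Slc6a19*, *Slc1a1*, *Slc7a7*, *Slc7a9*, and *Slc7a8* came after it in this order of medians, and the range of each overlapped that of the next. *Slc7a12* was last in males, at 3.25 ± 1.85 per kilobase, entirely below *Slc7a8*. In females *Slc7a12* came after *Cltrn* and *Slc6a18*, at 1919 ± 899, with *Slc6a18* at 3922 ± 1142, while *Slc7a13* was last, at 53.8 ± 63.8 (all SD, n = 8). The other members between them, from *Slc3a1* down to *Slc1a1*, overlapped with their neighbors.

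**Figure D1:**
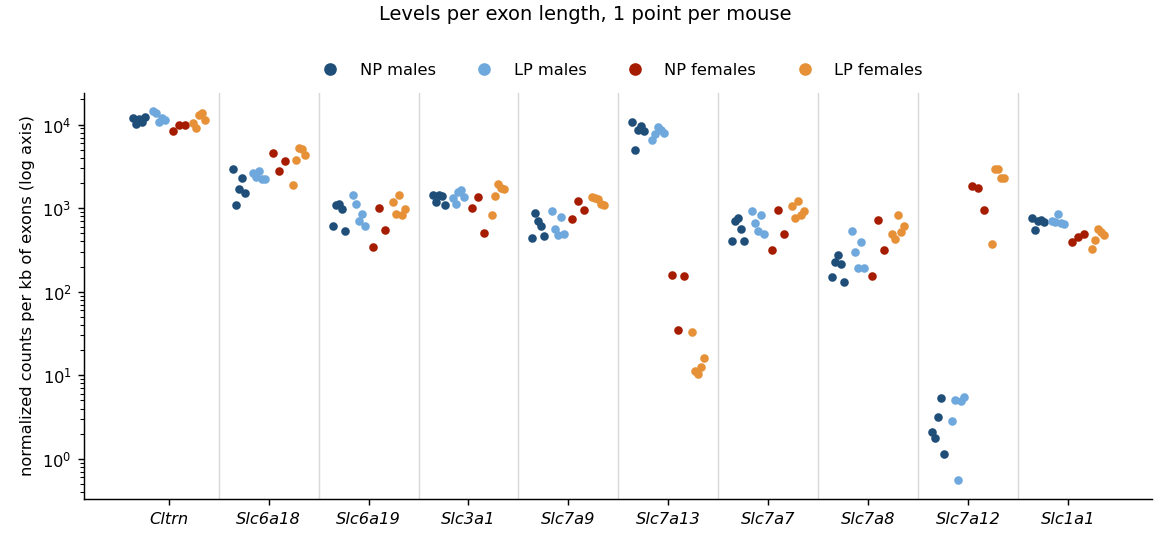
Normalized counts per kilobase of exons on a log axis for the 10 genes, with 1 point per mouse, colored by group. *Slc7a13* is near the top in males and last in females, *Slc7a12* is last in males, and *Cltrn* is highest in both sexes.

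Sequence before the start of transcription was taken from RefSeq (GRCm38.p6), whose table holds 13 promoters of 7 members: *Slc3a1*, *Slc7a9*, *Slc7a7*, *Slc7a8*, *Slc6a19*, *Slc1a1*, and *Cltrn*. *Slc7a13*, *Slc7a12*, and *Slc6a18* are not in it. The stretches shown are those of the 2 partner subunits and of 2 members that differed between the sexes below. Each was placed on GRCm39 by its only exact match on its chromosome and was cut at the first base within it that the annotation gives to an exon. Those of *Slc7a9* and *Cltrn* precede starts that lie inside the annotated genes, which begin at 35147668 and 162871826, so they lie inside the genes, between exon bases. Capitals mark GTTAAT, the half-site of the HNF1 factors that drive many genes of the proximal tubule, and TATAAA, the TATA box, on either strand. AGAACA, a half-site of the androgen receptor, was also searched. The *Slc3a1* stretch lies at chr17:85335525-85335774 (+), that of *Cltrn* at chrX:162872933-162873149 (+), that of *Slc7a9* at chr7:35148267-35148461 (+), and that of *Slc1a1* at chr19:28812285-28812448 (+).
Slc3a1: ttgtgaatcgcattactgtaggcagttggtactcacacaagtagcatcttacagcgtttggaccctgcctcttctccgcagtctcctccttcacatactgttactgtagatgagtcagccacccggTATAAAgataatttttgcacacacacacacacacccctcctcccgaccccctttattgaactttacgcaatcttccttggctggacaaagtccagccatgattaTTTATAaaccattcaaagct
Cltrn: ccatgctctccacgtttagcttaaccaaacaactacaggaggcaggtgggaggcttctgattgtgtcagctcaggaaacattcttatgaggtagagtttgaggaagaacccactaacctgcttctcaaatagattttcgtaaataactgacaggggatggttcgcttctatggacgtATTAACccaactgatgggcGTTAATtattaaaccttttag
Slc7a9: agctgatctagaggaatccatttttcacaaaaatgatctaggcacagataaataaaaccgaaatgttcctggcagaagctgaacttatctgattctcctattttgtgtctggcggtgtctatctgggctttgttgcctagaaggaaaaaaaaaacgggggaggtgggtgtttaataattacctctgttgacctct
Slc1a1: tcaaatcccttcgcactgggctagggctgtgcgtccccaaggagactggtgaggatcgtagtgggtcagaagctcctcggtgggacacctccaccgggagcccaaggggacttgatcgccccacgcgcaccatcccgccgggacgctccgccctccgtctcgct
*Cltrn* holds 2 HNF1 half-sites and *Slc3a1* 2 marked TATA boxes. The marked TTTATA of *Slc3a1* overlaps a further TATAAA on the forward strand, whose last bases are left in lower case. Over the 250 bases before the start, the HNF1 half-site was in 2 of the 13 member promoters, 1 of *Cltrn* and 1 of *Slc7a7*, and in 6.43% of all 32851 promoters. The androgen receptor half-site was in 4 of the 13, from *Slc6a19*, *Slc7a7*, and *Cltrn*, and in 16.1% of all promoters, and the TATA box in 12.4%. A match is only a match of letters, and a stretch without one says nothing about the factor.

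The sexes differed most in 2 light chain genes with mirrored levels. In males, *Slc7a13* (ENSMUSG00000041052.9, chr4:19818725-19842218 on GRCm39) had a lowest value of 10711 normalized counts, a median of 18089, and a highest of 23276. In females it had 71.1, 23.8, 21.9, 26.9, and 34.5 in LP 1 to 5, and 336, 75.0, and 332 in NP 1 to 3. Every male was above every female, a separation that 8.64% of the 12665 genes tested showed in either direction. Averaged over the diets, males exceeded females by 7.50 on the log2 scale (SE 0.38, edgeR adjusted p = 1.37e-10). *Slc7a12* (ENSMUSG00000039710.15, chr3:14545757-14570890) showed the reverse. In males it had between 1 and 11 reads per library, 54 in all 10 libraries together. In females it had 645, 5072, 5077, 4034, and 4006 normalized counts in LP 1 to 5, and 3183, 3049, and 1656 in NP 1 to 3, from 30408 reads in all. Its male counts were too low for the requirement of 10 counts in every library. With a mean count of at least 10 instead, the difference was -9.13 on the log2 scale (SE 0.43, edgeR adjusted p = 5.08e-11), and without LP female 1, LP female 2, and NP female 3 it was -9.35. Exact permutation of sex labels within each diet gave p = 7.09e-05 (two-sided) for each gene, the smallest that 14112 labelings allow.

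**Figure D2:**
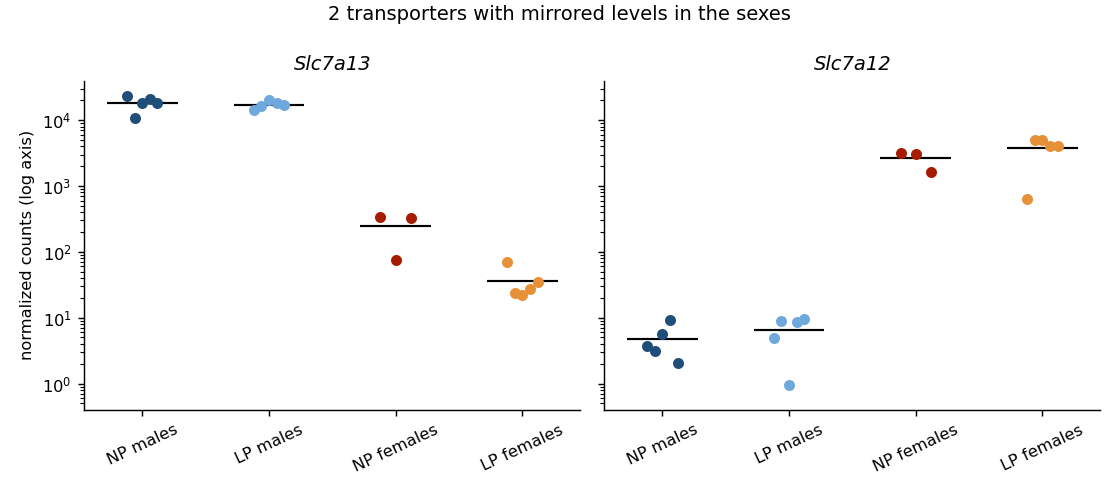
Normalized counts of *Slc7a13* and *Slc7a12* in each mouse on a log axis, with the group mean as a line. Males lie between 10711 and 23276 for *Slc7a13* and females between 21.9 and 336, while for *Slc7a12* males lie between 0.961 and 9.51 and females between 645 and 5077.

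Of the 9 members tested between the sexes, 2 were higher in males, *Slc7a13* and *Slc1a1*, and 3 were lower in males, *Slc7a9*, *Slc7a8*, and *Slc6a18*. Over all 12665 genes tested, 18.9% were called higher in males and 19.8% lower, and against these shares 2 and 3 of 9 do not set the members apart from other genes. The members' median log2 fold change was 0.12, against -0.05 over all genes. When mitochondrial genes and the top 10 genes by abundance were left out of the scaling, the median of all genes moved to -0.23, and 1306 genes were called higher in males and 4540 lower, against 2394 and 2506 with TMM. The 5 members kept their calls and directions under that scaling, and also without LP female 1, LP female 2, and NP female 3. Summed markers of some tubule segments also differed between the sexes. The 6 S3 markers summed to between 5056 and 6615 CPM in males and between 593 and 3321 CPM in females, those of the distal convoluted tubule to between 295 and 612 against between 622 and 1099, and those of intercalated cells to between 115 and 169 against between 167 and 289.9. The cortical markers overlapped, from 9369 to 11469 CPM in males and from 5419 to 10290 CPM in females. In females, *Acsm3* stood at no more than 0.734% and *Cyp7b1* at no more than 1.88% of the male median CPM. Both are S3 markers, so the S3 sum holds their own sex difference and does not measure S3 content alone. The part of these marker differences in the members' differences was not tested.

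*Slc1a1*, the glutamate and aspartate carrier, had from 4681 to 7219 normalized counts in males, with a median of 5951, and from 2815 to 4762 in females, with a median of 3937. Only NP male 2 reached into the female range. The log2 difference was 0.58 (SE 0.10, edgeR adjusted p = 0.000156), and it was called in NP mice alone (0.57) and in LP mice alone (0.61). *Slc7a9*, the light chain of cystine uptake, had from 1309 to 2745 normalized counts in males, with a median of 1732, and from 2164 to 3971 in females, with a median of 3479. Its ranges overlapped between the sexes through LP male 1, LP male 4, and NP male 2, which were above NP female 1. The log2 difference was -0.82 (SE 0.16, edgeR adjusted p = 0.000783). The difference was called in LP mice alone (-0.95) but not in NP mice alone (-0.69, adjusted p = 0.0918, edgeR).

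*Slc6a18*, a carrier of glycine and other neutral amino acids, had from 4851 to 13000 normalized counts in males, with a median of 10007, and from 8462 to 23476 in females, with a median of 17853. LP female 1 was the lowest female, and without it the females began at 12431. The log2 difference was -0.88 (SE 0.19, edgeR adjusted p = 0.00142), and it was called in either diet alone. *Slc7a8*, the basolateral exchanger of neutral amino acids, had from 1213 to 4954 normalized counts in males, with a median of 2033, and from 1439 to 7640 in females, with a median of 4716. The ranges overlapped widely, with NP female 1 among the lower males and LP male 1 above the female median. The log2 difference of -0.96 (SE 0.27, edgeR adjusted p = 0.00887) lost its call without NP female 2 (-0.59), with limma-voom (-0.57, adjusted p = 0.0706), and in either diet alone (-1.06 in NP, adjusted p = 0.116, and -0.85 in LP, adjusted p = 0.0588, edgeR).

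The other 4 members were not called. *Cltrn* had 23856 ± 2764 normalized counts (SD, n = 10) in males and 21482 ± 3810 (SD, n = 8) in females, which differed by 0.16 on the log2 scale (SE 0.09, edgeR adjusted p = 0.197). *Slc3a1* had 7314 ± 971 in males and 7105 ± 2694 in females. Its SD was 13.3% of the mean in males and 37.9% in females, where NP female 3 was lowest at 2721 and LP female 3 highest at 10592. For *Slc3a1*, *Slc6a19*, and *Slc7a7*, the log2 fold changes were 0.12 (SE 0.17), 0.12 (SE 0.23), and -0.29 (SE 0.20). The scaling without mitochondrial and abundant genes turned those of *Slc3a1*, *Slc6a19*, and *Cltrn* to -0.05, -0.06, and -0.02.

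The balance between subunits followed from these levels. Per kilobase, the 2 light chains *Slc7a9* and *Slc7a13* together stood at 6.59 ± 1.01 times *Slc3a1* in males (SD, n = 10) and at 1.07 ± 0.554 times in females (SD, n = 8), and the ranges were apart, from 5.02 to 8.04 and from 0.648 to 2.17. *Slc7a9* alone stood at 0.475 ± 0.150 times *Slc3a1* in males and at 0.997 ± 0.476 times in females, with overlapping ranges. *Slc7a13* alone stood at 6.11 ± 1.12 times in males and at 0.0698 ± 0.108 times in females, where NP females 1 and 3 were highest. If exon bases shared with *Prepl* and other genes were left out of the lengths, a choice made after the data were seen, the summed ratio in males was 4.85. *Slc6a19* and *Slc6a18* together stood at 0.259 ± 0.0456 times *Cltrn* in males and at 0.450 ± 0.0883 times in females, with overlapping ranges.

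The diet groups were compared next, within each sex, to ask whether the mother's protein intake left a difference in the adult offspring. In males, edgeR called 0 of the 9 members tested, against 0.0379% of the 13181 genes tested, and DESeq2 and limma-voom also called 0. Of the 13181 genes, 506 had an unadjusted p under 0.05, and among the members 1 did, *Slc7a8*. It had 4954, 2787, 1799, 3613, and 1786 normalized counts in LP males 1 to 5, and 1382, 2073, 2546, 1994, and 1213 in NP males 1 to 5. LP males 1, 2, and 4 were above every NP male, and LP males 3 and 5 were within the NP range. LP exceeded NP by 0.71 on the log2 scale (SE 0.29, edgeR p = 0.0311, adjusted p = 1.00), and an exact permutation test gave p = 0.127. The other members lay between -0.07 (SE 0.17) for *Slc7a13* and 0.37 (SE 0.21) for *Slc6a18*. No member had LP and NP males apart, a pattern that 0.713% of all genes tested showed. *Slc7a12* was not tested, and had 33 reads in LP males and 21 in NP males.

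In females, 0 of the 10 members were called by edgeR or by limma-voom, as were 0% of the 13510 genes tested. An unadjusted p under 0.05 was found for 564 of all genes tested and for 1 member. That member was *Slc7a13*, which DESeq2 called. It averaged 35.7 ± 20.4 normalized counts in LP females (SD, n = 5) and 247 ± 149 in NP females (SD, n = 3). NP female 3, among the high values, was the library with the most mitochondrial counts and the fewest genes. Each LP female was below each NP female, as given above by mouse, though LP female 1 (71.1) and NP female 2 (75.0) were nearly equal. It alone of the 10 had the diets apart, as did 3.07% of all genes tested. The log2 difference was -2.79 (SE 0.53, edgeR p = 0.000443, adjusted p = 0.886), and exact permutation gave p = 0.0179, the smallest that 5 against 3 mice allow. It was called by DESeq2 (-2.81, adjusted p = 0.00062), by edgeR with all 4 groups in 1 model (-2.80, adjusted p = 0.0152), and by edgeR with no filter on low counts (-2.73, adjusted p = 0.0272). Over all genes tested, these fits called 9 of 13501, 2 of 12665, and 3 of 37770, in the same order. Without LP female 1, LP female 2, and NP female 3, edgeR again called 0 members, and the value for *Slc7a13* was -2.90. The diet effect on *Slc7a13* was lower in females than in males by an interaction term of -2.72 (SE 0.53, edgeR adjusted p = 0.228). Here edgeR called 0 of 9 members, against 0.0158% of 12665 genes. At an unadjusted p under 0.05 were 1 member and 509 of all genes. DESeq2 and limma-voom each called 1 member, *Slc7a13* (adjusted p = 0.000995 and 0.039). Over all genes tested for the interaction, DESeq2 called 5 of 12659 and limma-voom 7 of 12665.

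Counts of Y chromosome genes were set beside *Slc7a13* in the females. The 4 genes of the Y chromosome stood at 0.711%, 0.544%, and 2.59% of the male median in NP females 1 to 3, from 17, 14, and 58 reads, and at 0% to 0.36% in LP females, from 0 to 11 reads. *Slc7a13* stood at 2.21%, 0.494%, and 2.01% of its male median in NP females 1 to 3, and at 0.478%, 0.162%, 0.134%, 0.159%, and 0.216% in LP females 1 to 5. In NP female 2 these shares were nearly equal, in NP female 1 that of *Slc7a13* was the higher, and in NP female 3 that of the Y genes was. *Acsm3* and *Cyp7b1*, S3 genes that males express at far higher levels, were read in the same way. *Acsm3* stood at 0.563%, 0.518%, and 0.661% of its male median in NP females 1 to 3, and at 0.734%, 0.0820%, 0.0415%, 0.301%, and 0.273% in LP females 1 to 5. LP females 2 to 5 were thus below every NP female for *Acsm3*, as they were for the Y genes and *Slc7a13*, whereas LP female 1 was above every NP female for *Acsm3*. *Cyp7b1* stood at 1.57%, 0.995%, and 1.07% in NP females and at 0.365% to 1.88% in LP females, a range that held all 3 NP values.

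When an amount set by each library's Y share was taken off, the difference in *Slc7a13* between LP and NP females on the log2(CPM + 1) scale went from -2.19 (exact permutation p = 0.0179) to -0.35 (exact permutation p = 0.839). LP female 4, NP female 2, and NP female 3 then fell below 0 and were set to 0, and NP female 1 kept 14.7 of its 21.7 CPM. In NP female 3 the amount taken off, from a Y share of 2.59%, exceeded the share of *Slc7a13* itself. *Acsm3* stood at only 0.661% of its male median in that library. Since these libraries were set to 0 by the subtraction, the value of -0.35 and its p cannot show whether the diets differed. Whether the female libraries held any male RNA was not tested.

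**Figure D3:**
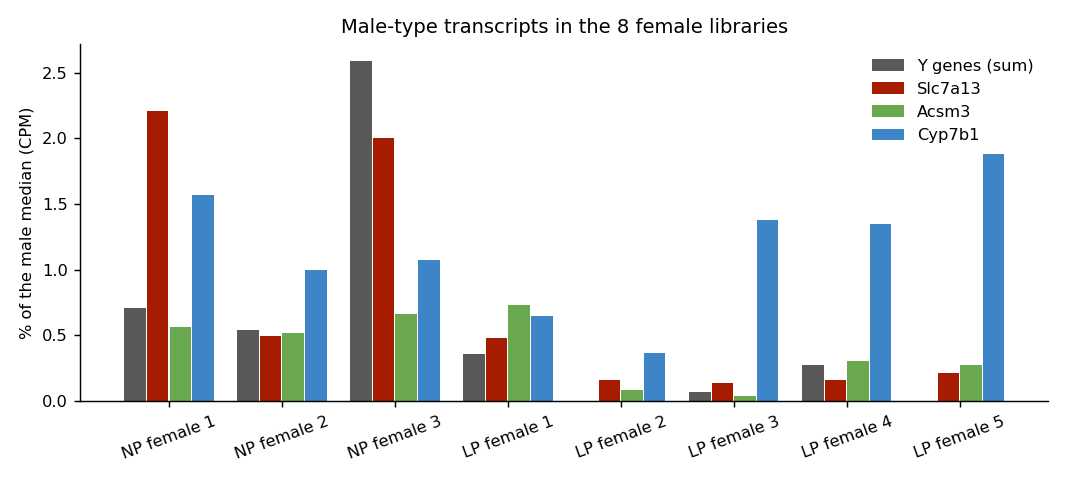
Summed Y chromosome genes, *Slc7a13*, *Acsm3*, and *Cyp7b1* in each female library as a percent of the median CPM in males, with bars starting at 0. NP female 3 has the highest Y share, 2.59%, and NP female 1 the highest *Slc7a13*, 2.21%.

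The other 9 members all had positive log2 fold changes in LP over NP females, from 0.03 (SE 0.18) for *Slc1a1* to 0.72 (SE 0.34) for *Slc6a19*, and none was called. The size of several rested on single NP females. Without NP female 1, the values of *Slc6a19*, *Slc7a7*, and *Slc7a8* were 0.44, 0.40, and 0.14, and without NP female 2 they were 1.23, 1.25, and 1.28. With *Slc7a13*, the median of the 10 was 0.41, against -0.01 over all genes, of which 48.1% were positive. *Slc6a19* had 5951, 4211, 7222, 4115, and 4891 normalized counts in LP females 1 to 5, and 1734, 4967, and 2776 in NP females 1 to 3. NP females 1 and 3 were below every LP female, and NP female 2 was within their range. *Slc7a7* showed the same, with 6390, 4628, 7325, 4978, and 5587 in LP females and 1903, 5764, and 2961 in NP females. Summed CPM of the 6 cortical markers ranged from 6736 to 9791 in LP females and from 5419 to 10290 in NP females, lowest in NP female 1 and highest in NP female 2. In males, 8 of 9 members were higher in LP, with a median of 0.13 against 0.00 over all genes.

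**Figure D4:**
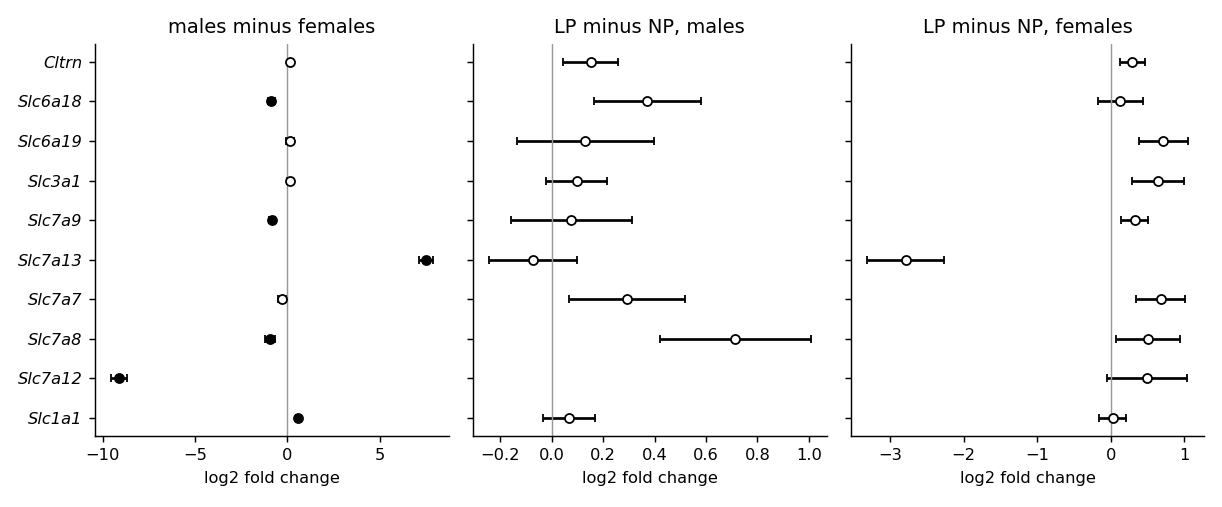
Log2 fold changes between males and females, and between LP and NP mice of each sex, with bars of 1 SE. Filled points have an adjusted p under 0.05. The value for *Slc7a12* between the sexes is from genes with a mean count of at least 10, and each panel has its own scale.

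Within groups, 5 of the 10 members in males and 3 in females followed markers of a stretch of the proximal tubule from mouse to mouse. Each member's deviation from its group mean, on the log2(CPM + 1) scale, was set against the mean deviation of the 6 cortical markers (*Slc5a2*, *Slc5a12*, *Slc34a1*, *Slc4a4*, *Slc22a6*, and *Slc22a8*) or of the 6 S3 markers (*Atp11a*, *Slc22a7*, *Slc22a19*, *Cyp7b1*, *Slco1a6*, and *Acsm3*). These 40 relations, 10 members by 2 marker sets in 2 sexes, were tested by exact permutation within groups, with Benjamini-Hochberg adjustment. The share of all genes that would pass was not tested, so the counts do not set the members apart from other genes. In the 10 males, *Slc7a9*, *Slc7a7*, *Slc7a8*, and *Slc6a19* followed the cortical markers. For *Slc7a7*, Pearson's r was 0.956 (permutation p = 0.00111, adjusted p = 0.0185) and Spearman's rho 0.879 (permutation p = 0.00354, adjusted p = 0.0327), and r was 0.961 without LP male 5 and NP male 5, the 2 mice farthest from the median. For the other 3, r was 0.889 (*Slc7a9*), 0.918 (*Slc7a8*), and 0.908 (*Slc6a19*), with adjusted permutation p = 0.0222, 0.0111, and 0.0202, rho was 0.782, 0.830, and 0.855, and r without the same 2 mice was 0.895, 0.895, and 0.839. LP males 1 and 4 and NP males 2 and 3 were high for these markers, and LP males 3 and 5 and NP males 1 and 5 were low.

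The same 4 genes ran against the S3 markers in males, with r between -0.851 and -0.694 and adjusted permutation p between 0.0202 and 0.0447. In all males but NP male 4, the cortical and S3 marker means themselves deviated in opposite directions. They were -0.26 and 0.43 in NP male 1, and 0.25 and -0.46 in NP male 2. The relations to the S3 markers are therefore not separate from those to the cortical markers. *Slc7a13* rose with the S3 markers, with r = 0.887 (permutation p = 0.00313, adjusted p = 0.0202), rho = 0.806 (permutation p = 0.0111, adjusted p = 0.0429), and r = 0.659 without NP males 1 and 2. *Slc1a1* and *Slc6a18*, with r of 0.734 and 0.733 to the S3 markers, did not pass (adjusted permutation p = 0.0954 and 0.186), and without NP males 1 and 2 their r was 0.313 and -0.10. In males, *Slc3a1*, *Cltrn*, *Slc7a12*, *Slc6a18*, and *Slc1a1* passed with neither marker set.

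In the 8 females, *Slc7a7* and *Slc6a19* followed the cortical markers. *Slc7a7* had r = 0.958 (permutation p = 0.00139, adjusted p = 0.0185) and rho = 1.00, and r = 0.869 without NP females 1 and 2. *Slc6a19* had r = 0.936 (permutation p = 0.0125, adjusted p = 0.0447), rho = 0.976, and r = 0.792 without the same mice. *Slc7a8* had r = 0.939 but missed the threshold (adjusted permutation p = 0.0641), and the r of *Slc7a9*, 0.716, fell to -0.03 without NP females 1 and 2. *Slc6a18* followed the S3 markers with r = 0.885 (permutation p = 0.0111, adjusted p = 0.0444) and r = 0.741 without LP females 1 and 4, but its rho of 0.762 did not pass (adjusted permutation p = 0.147). *Slc7a12* had r = 0.694 with the S3 markers (adjusted permutation p = 0.222), which fell to 0.255 without LP females 1 and 4. *Slc7a13* had r = -0.15 with the S3 markers in females. Among those markers, *Acsm3* had only 10 counts in LP female 3. All members and markers of a mouse come from 1 piece of kidney and 1 library.

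**Figure D5:**
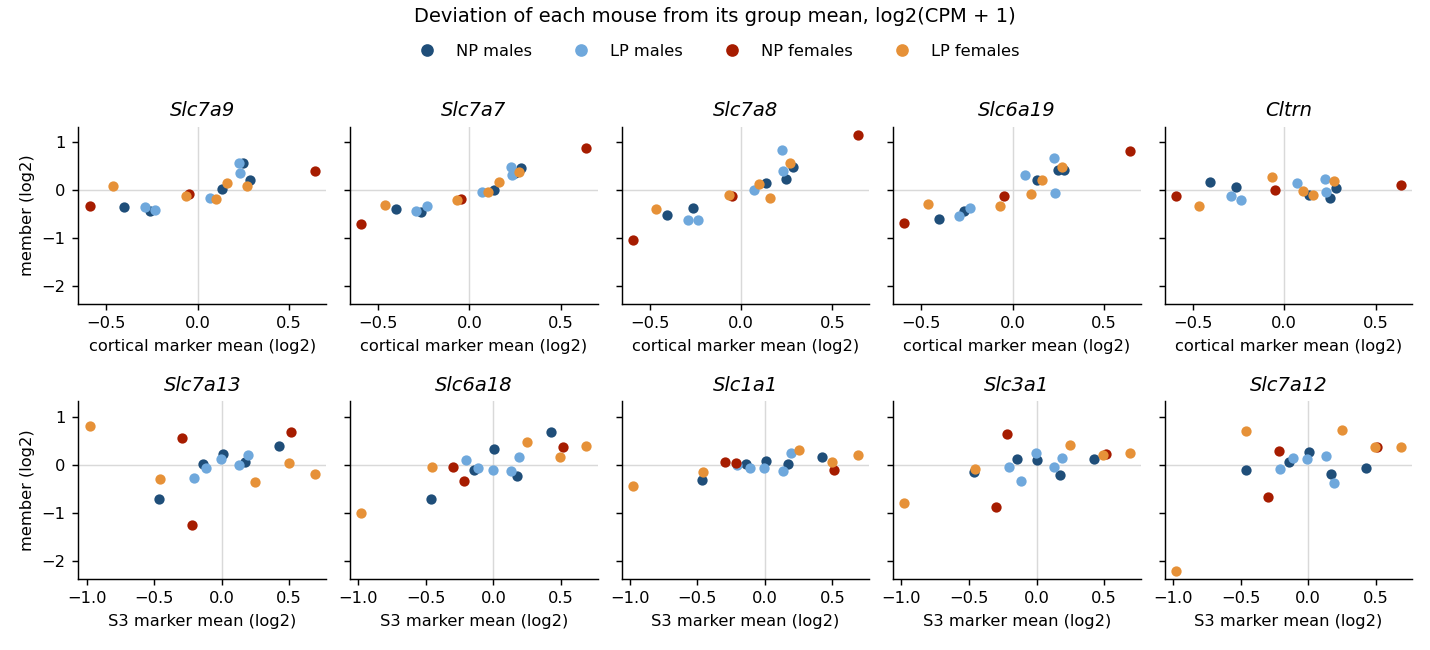
Deviation of each member from its group mean in each mouse, in log2(CPM + 1), against the mean deviation of the cortical markers (top row) or the S3 markers (bottom row). *Slc7a9*, *Slc7a7*, *Slc7a8*, and *Slc6a19* rise along the top row in males, *Slc7a13* rises with the S3 markers in males, and LP female 1 is the low point for *Slc7a12*.

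The genes most like the mirrored pair were sought among 12655 other genes with enough counts in all libraries, by Pearson's r of log2(CPM + 1) over the 18 libraries. For *Slc7a13* they were *Pzp* (0.993), *Slco1a1* (0.989), *Acsm3* (0.988), *Inmt* (0.988), and *Slc22a30* (0.983). For *Slc7a12* they were *Cbr1* (0.984), *Gm16010* (0.976), *Oat* (0.975), *Spidr* (0.970), and *Gsta2* (0.969). The mice form separate clusters by sex on both genes, so these values are mostly set by that gap. On deviations from the 4 group means, the order was different. The genes nearest to *Slc7a13* were then *Zmat5* (0.846), *Mmadhc* (0.828), *Msantd5l* (0.826), *Eaf2* (0.817), and *Rapsn* (0.817). Those nearest to *Slc7a12* were *Nhsl1* (0.889), *Spidr* (0.888), *Slc2a13* (0.884), *Cp* (0.865), and *Chrdl1* (0.864). For *Slc7a12*, LP female 1 deviated by -2.21 and all other mice by between -0.67 and 0.73, so that list rests largely on 1 library. For *Slc7a13*, the largest deviation was -1.26 in NP female 2, and female values came from 25 to 336 reads. These lists were not repeated without these libraries.

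Among 31 other genes for amino acid and peptide transporters or their partners, 24 were tested between the sexes, and 5 were higher and 5 lower in males, shares near the 18.9% and 19.8% of all genes tested. *Slc1a4*, a carrier of alanine, serine, and cysteine, was higher in males at 932 ± 183 against 356 ± 93.6 normalized counts (SD, n = 10 and 8), which differed by 1.32 on the log2 scale (SE 0.16, edgeR adjusted p = 6.03e-06). *Slc1a2* (1.72), *Slc36a1* (0.82), and *Slc6a20b* (0.31) were also higher. *Slc1a2* had 614 normalized counts in 1 male and a male median of 74.7. *Slc1a5* (-0.93), *Slc6a20a* (-0.82), *Slc15a2* (-0.68), *Slc7a5* (-0.58), and *Slc3a2* (-0.58) were lower in males. *Slc3a2*, the heavy chain for *Slc7a7* and *Slc7a8*, had 3709 ± 746 in males and 5621 ± 1885 in females (SE 0.16, edgeR adjusted p = 0.0100). Between the diets, edgeR called 0 of 25 in males and 0 of 24 in females, with 3 and 0 at an unadjusted p under 0.05. Over all genes, 506 of 13181 in males and 564 of 13510 in females were under 0.05. The interaction gave 0 of 24, with 0 at an unadjusted p under 0.05, against 509 of 12665 genes.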

How the data were processed

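RNA from the kidneys of 18 mice was sequenced after poly(A) selection as non-directional libraries. The authors removed reads of poor quality and adapters, used STAR on GRCm39, and deposited raw counts per gene, without normalization. The counts taken without regard to strand were used, and totals of reads not on genes were left out. Groups came from the sample titles. The adult offspring came from fewer litters than a group of 5 has mice, so some mice share a litter, and p-values measure only the spread between mice. The 10 genes and all lists were chosen with earlier results of these data known.

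Counts were fitted with edgeR 4.0.16 (R 4.3.3) across all genes that reached 10 counts in each of the compared libraries, with TMM normalization, the quasi-likelihood test, and Benjamini-Hochberg adjustment over all genes tested. Called means an adjusted p under 0.05. Each fit was tested on simulated data. Diets were compared within each sex, sexes over the mean of both diets, and the diet effect between sexes as an interaction. The SE is the log2 fold change divided by the square root of F. Single genes were tested by exact two-sided permutation on log2(normalized count + 1), with DESeq2 1.42.0 size factors. All members were named, and of the other transporters the 5 in each direction with the smallest adjusted p between the sexes, with *Slc3a2*. One gene of that list is not reported here. For *Slc7a13* and *Slc7a12*, the 5 genes most correlated over libraries, and over deviations, were named. These correlations and the segment relations used TMM-scaled CPM. Alternatives were other filters, scalings, tests (DESeq2, limma 3.58.1), models, pseudocounts, lengths, a replicate block, a Y share, and leaving out libraries. Gene positions and exon lengths are from GENCODE vM39, a later release than the authors used. Python 3.11.15 with numpy 2.4.6, pandas 2.3.3, scipy 1.17.1, and matplotlib 3.10.9 was used. Read counts limit the precision most for *Slc7a12* in males and *Slc7a13* in LP females.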

Additional observations from a re-analysis of the deposited data

Results flagged for a closer look

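Within the groups of 5 mice, 2 of 30 sets of normalized counts held a mouse far from the other 4, and about 1 in 20 would by chance. Both were LP female 1. It was the highest LP female for *Slc7a13*, at 71.1 against 21.9 to 34.5 in the other 4, and that gap took up 0.744 of the whole range. It was the lowest LP female for *Slc7a12*, at 645 against 4006 to 5077, a gap of 0.758 of the range. NP females, with 3 mice, were not examined in this way.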

How the results depend on the processing

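Alternatives that leave out no single library gave 46 counts of members called, or of members with an exact permutation p under 0.05. In 39 of them the count stayed within 1.5 times of that reported. In females between the diets, the number called rose from 0 to 1 (*Slc7a13*) with DESeq2, with no filter, and with all 4 groups in 1 model. In the interaction it rose from 0 to 1 with DESeq2, limma-voom, and no filter. Between the sexes the number of members called fell from 5 to 3 in NP mice alone. Calls over all genes fell as well, from 4900 of 12665 to 1954 of 12952. With 1 library left out, the number of members called was from 0 to 0 in males, 0 to 0 in females, and 4 to 5 between the sexes. Between the sexes, these fits called from 4440 of 12689 to 5314 of 12683 genes. For the interaction the number of members was from 0 to 1, where *Slc7a13* was called without LP female 1 or NP female 2. Over all genes tested, the interaction with no filter called 3 of 42285. With the main settings, it called 2 of 12686 without LP female 1 and 4 of 12683 without NP female 2. With the Y share taken off and values below 0 set to 0, the *Slc7a13* difference in females was -0.35, which cannot show whether the diets differed. With unshared exon lengths the light chain ratio in males was 4.85.

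No called member reversed under an alternative. Uncalled members did so as follows. With limma-voom, *Slc3a1*, *Slc7a9*, and *Slc6a19* between diets in males were -0.0011, -0.079, and -0.073, *Slc7a8* and *Slc1a1* in the interaction 1.17 and 0.19, and *Slc7a7* between the sexes 0.00023. With libraries scaled without mitochondrial and abundant genes, *Slc1a1* between diets in females was -0.011, and *Slc3a1*, *Slc6a19*, and *Cltrn* between the sexes -0.053, -0.061, and -0.021. Without LP females 1 and 2 and NP female 3, *Slc6a18* and *Slc1a1* in the interaction were 0.0094 and 0.19, and *Slc3a1* between the sexes -0.15, or -0.12 with a mean count of at least 10, an alternative added after the data were seen. In LP mice alone, *Slc3a1* and *Slc6a19* between the sexes were -0.15 and -0.17. With 1 library left out, values that changed sign ranged as follows. Between diets in males, *Slc6a19* ranged from -0.076 to 0.25, *Slc7a13* from -0.21 to 0.028, and *Slc7a9* from -0.093 to 0.24. Between diets in females, *Slc1a1* ranged from -0.034 to 0.13 and *Slc6a18* from -0.017 to 0.32. In the interaction, *Slc1a1* ranged from -0.13 to 0.043 and *Slc7a8* from -0.59 to 0.53, and between the sexes *Slc3a1* from -0.041 to 0.29 and *Slc6a19* from -0.028 to 0.36. Why these uncalled values changed sign was not tested.

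The correlations by replicate number, 5 or 3 for each pair of groups, are too few to show whether the numbers pair the mice. In males, the deviations of an LP and an NP mouse with the same number correlated at a median of -0.15, and in females at -0.44. Between a male and a female of the same diet and number, the median was -0.03 in LP and 0.14 in NP mice. The NP values ranged from -0.27 to 0.48. The replicate block called 0 members between diets in males, 0 in females, and 0 in the interaction. Between the sexes it called 5 members, and 4203 of 12665 genes. It turned *Slc6a18* and *Slc1a1* between diets in females to -0.10 and -0.079.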
